A study of Mus musculus with 4 samples.

Results

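Endothelial cells line the capillaries of the pancreatic islet. They were picked out of single-cell RNA counts of dissociated mouse islets as barcodes that carried at least 500 genes, a mitochondrial share under 20% and at least 0.3% of their unique molecular identifiers (UMIs, 1 per captured RNA molecule) in 7 endothelial marker genes. The markers were Pecam1, Plvap, Cdh5, Kdr, Esm1, Flt1 and Emcn. Members were thus selected on their own measured RNA. The rule found 180 members among the 6995 barcodes that passed the first 2 limits, which is 2.57% of them, out of 11114 barcodes in the matrices. All islets came from 2-month-old mice with floxed Atf4 alleles. In the 2 mutant samples (Atf4F/F; Ins1Cre) the Cre recombinase is made from the insulin gene Ins1, whose activity is a property of beta cells. The 2 control samples (Atf4F/F) carry the floxed alleles without the Cre driver, so loss of Atf4 and presence of the Ins1Cre allele cannot be told apart. Each sample pooled islets, from 2 males and 2 females in the design text and from 3 to 4 mice in the protocol, so an n of 2 per group counts pools and not mice. tdT-positive and tdT-negative cells went into the same run, and 10% human K562 cells, a leukaemia line, had been added; neither can be told from the matrices, which name mouse genes. Values of the 4 samples are given below in the order mutant 1, mutant 2, control 1, control 2.

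Islet capillaries are dense and fenestrated. Beta cells secrete the growth factor Vegfa, and the capillary cells that receive it through the receptors Kdr and Flt1 supply the islet with basement membrane, oxygen and a route for hormones into the blood. Their identity is held by transcription factors of the ETS family, such as Erg, Fli1 and Ets1, and of the SOX F family, Sox7, Sox17 and Sox18. ETS factors bind DNA around a GGAA core.

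The promoters of the 7 markers and of the 20 other genes that stood out in these barcodes (below) were searched for one ETS motif, CAGGAAG, on both strands (CTTCCTG on the reverse strand). RefSeq promoter sequences on GRCm38.p6, running from 250 bases before to 50 after the start of the gene, matched 15 of the 27 genes with 18 promoters. The motif was found in 6 of the 18 (33.3%), belonging to 5 genes, and in 4359 of all 32851 promoters in the table (13.3%). A SOX motif, AACAAT or ATTGTT, was in 2 of the 18 (11.1%) and in 10.7% of all promoters. The promoters of Emcn, the gene of the capillary surface mucin endomucin, of Btnl9 and of Exoc3l2 are shown as examples that hold the ETS motif, and that of Kdr, the main receptor of Vegfa, as one in which these letters do not occur. Capitals mark the motif. They lie at chr3:137340828-137341127 on the plus strand, chr11:49187040-49187339 on the minus strand, chr7:19463037-19463336 on the plus strand and chr5:75978406-75978705 on the minus strand.
Emcn: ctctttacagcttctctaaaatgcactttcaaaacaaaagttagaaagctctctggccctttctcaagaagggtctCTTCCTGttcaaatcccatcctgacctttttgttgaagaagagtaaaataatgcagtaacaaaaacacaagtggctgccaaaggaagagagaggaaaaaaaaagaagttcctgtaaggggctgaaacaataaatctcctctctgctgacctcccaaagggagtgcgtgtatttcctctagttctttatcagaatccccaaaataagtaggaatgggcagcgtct
Btnl9: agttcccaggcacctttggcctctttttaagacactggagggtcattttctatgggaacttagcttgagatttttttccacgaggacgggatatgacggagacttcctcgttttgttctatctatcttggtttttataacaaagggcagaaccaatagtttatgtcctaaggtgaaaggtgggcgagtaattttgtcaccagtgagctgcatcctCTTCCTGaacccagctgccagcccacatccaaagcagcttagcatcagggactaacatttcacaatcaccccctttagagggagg
Exoc3l2: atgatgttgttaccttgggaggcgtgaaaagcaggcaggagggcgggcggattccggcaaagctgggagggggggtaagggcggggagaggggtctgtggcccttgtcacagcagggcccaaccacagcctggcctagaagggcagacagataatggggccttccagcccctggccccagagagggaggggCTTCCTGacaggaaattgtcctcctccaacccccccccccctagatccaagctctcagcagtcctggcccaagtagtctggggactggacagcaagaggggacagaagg
Kdr: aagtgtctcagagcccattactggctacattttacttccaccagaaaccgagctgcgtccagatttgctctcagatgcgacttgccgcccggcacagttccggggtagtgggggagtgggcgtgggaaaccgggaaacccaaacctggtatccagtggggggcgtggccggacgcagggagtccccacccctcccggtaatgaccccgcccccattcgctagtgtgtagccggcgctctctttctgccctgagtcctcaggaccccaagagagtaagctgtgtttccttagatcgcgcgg

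Members were found in every sample: 37, 49, 30 and 64 barcodes with 158522, 183206, 102747 and 316677 UMIs in all. Their median UMI counts per barcode were 2553, 2253, 2158 and 3230, against a median of 6334 in 5107 insulin-rich barcodes (Ins1 and Ins2 at least 20% of UMIs, markers under 0.3%). A further 74 barcodes with at least 0.3% of UMIs in 9 macrophage genes, under 20% insulin and under 0.3% in the endothelial markers serve as a second comparison. No cell barcode sequence was shared by members of different samples, while 383 sequences were shared among all barcodes, and 6 members shared theirs with a kept barcode of another sample. The choice was not finely balanced for most members: 6642 of the 6995 barcodes had under 0.05% of UMIs in the markers and 70 had 3% or more. At the limit, the closest barcode outside had 0.299% in the markers and the closest inside 0.308%.

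The members formed 2 sets that differed in hormone RNA, measured as the share of UMIs in Ins1, Ins2, Iapp, Gcg, Sst, Ppy and Pyy. In 109 members this share was under 5%, with a median of 1.24%, and in 71 it was 5% or more, with a median of 42.0%; only 3 members lay between 5% and 20%. The hormone-poor members (23, 26, 21 and 39 per sample) held a median of 3.33% of UMIs in the 7 markers, and the hormone-rich members (14, 23, 9 and 25) held 0.473%. All 38 members with 0.3% to 0.5% in the markers were hormone-rich. The median hormone share of the hormone-rich members was near that of insulin-rich barcodes (47.3%), and their median UMI count was 3942, against 2104 in the hormone-poor. Insulin led the hormones in 63 of the 71, Gcg (glucagon, of alpha cells) in 6, Sst (somatostatin, of delta cells) in 1 and Ppy or Pyy in 1. The label of islet endothelial cells thus rests on the 109 hormone-poor members; the other 71 carried hormone RNA at nearly the share of endocrine cells, and whether such a barcode held 1 cell or 2 was not tested. The split at 5% was chosen after the values were seen, so most comparisons of the groups below are given for all members and for the hormone-poor.

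**Figure D1:**
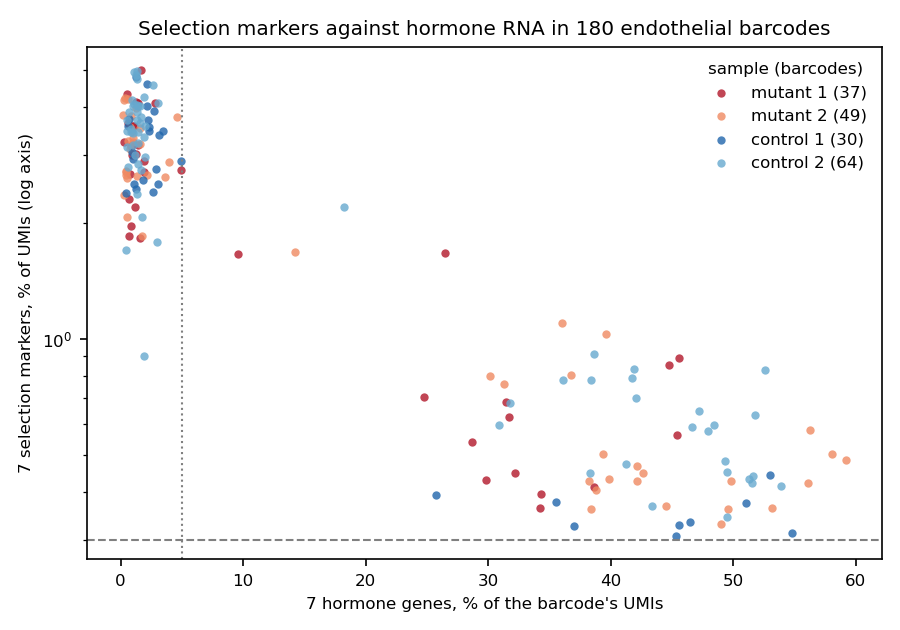
Each point is 1 of the 180 members, with the share of its UMIs in the 7 hormone genes on the x axis and in the 7 selection markers on a logarithmic y axis, coloured by sample. The dotted line is the 5% hormone limit and the dashed line the 0.3% selection limit; the 109 hormone-poor members lie at the upper left and the 71 hormone-rich members at the lower right, in all 4 samples.

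Levels are given from here as UMIs per 1000000 UMIs of the summed class (CPM) in each sample. The selection markers, described without a test because they chose the members, stood in hormone-poor members at 8211, 10730, 9327 and 9760 CPM for Kdr and at 7808, 8891, 6470 and 7280 CPM for Flt1, the decoy-like receptor of Vegfa. Plvap, which forms the diaphragms of the fenestrae, was at 6772, 5310, 5987 and 6251 CPM, and in insulin-rich barcodes at a mean of 5.64 CPM. Esm1, a secreted proteoglycan of endothelium exposed to Vegfa, was at 2743, 2449, 3382 and 3764 CPM. A UMI was found for Kdr in 108, for Plvap, Flt1 and Emcn in 107 each, and for Pecam1 in 96 of the 109 hormone-poor members; in insulin-rich barcodes, which were deeper, these shares were 3.72%, 3.15%, 4.07%, 2.80% and 5.03%. Cdh5, the cadherin of endothelial junctions, was found in 74 of 109 (67.9%) against 7.66%.

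Beyond the markers, 467 genes reached 200 CPM in every one of the 4 endothelial sums, and 55 of them were at least 100 times as high in the members as in all other kept barcodes. This is a description of the class and no test. The 20 with the largest ratios were Fabp4, Ces2e, Clec14a, Ly6c1, Gpihbp1, Igfbp3, Sox18, Btnl9, Ctla2a, Plscr2, Plpp3, Ramp3, Cd300lg, Tmem204, Podxl, Mmrn2, Ptprb, Eng, Mgll and Exoc3l2. Plpp3, a membrane enzyme that degrades lysophosphatidic acid, had UMIs in all 109 hormone-poor members and stood at 11220, 10660, 9789 and 10230 CPM there, against 4.40, 12.2, 4.79 and 15.1 CPM in insulin-rich barcodes. Gpihbp1, which carries lipoprotein lipase across capillary walls, was at 978, 705, 777 and 817 CPM. Fabp4, a fatty acid binding protein of capillaries, was uneven among samples, at 1727, 1610, 630 and 2998 CPM, and among members: over all 64 members of control 2, a single one held 59.4% of the 443 Fabp4 UMIs. Of 22 further genes known across endothelia, 21 had at least 10 UMIs in the hormone-poor members, all of them more than 10 times as high as in insulin-rich barcodes. Egfl7, a secreted matrix protein, was at 3127, 2476, 3193 and 3567 CPM. The tight junction gene Cldn5 was the exception, with 3 UMIs.

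**Figure D2:**
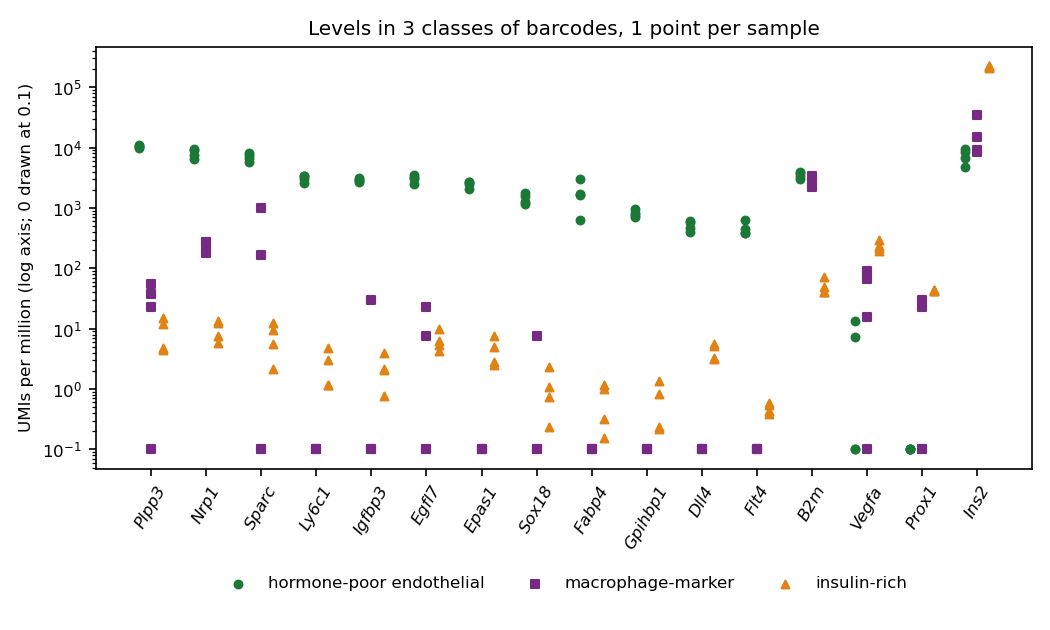
Level of 16 genes on a logarithmic axis (CPM) in hormone-poor endothelial, macrophage-marker and insulin-rich barcodes, 1 point per sample and class, with a sum of 0 UMIs drawn at 0.1. Endothelial genes other than the lymphatic gene Prox1 stand above the insulin-rich barcodes in every sample, while Vegfa and Prox1 stand the other way. B2m is high in endothelial and macrophage-marker barcodes alike, and Ins2 is present in all 3 classes.

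Vegfa and its co-receptor Nrp1, neither of them a selection marker, were compared between hormone-poor members and insulin-rich barcodes. The receptors Kdr and Flt1 were separated between these classes by the selection rule itself. Hormone-rich members are not part of this comparison. Vegfa had a UMI in 2 of 109 hormone-poor members (1.83%, exact 95% interval 0.223% to 6.47%) and in 3478 of 5107 insulin-rich barcodes (68.1%). When every barcode was thinned to 1000 UMIs, which left 89 and 5106 barcodes, the shares were 1.12% and 19.7%. Nrp1, the co-receptor, had UMIs in 109 of 109 hormone-poor members and in 5.66% of insulin-rich barcodes, with levels of 6542, 9183, 9600 and 7593 CPM in the members. Of the angiopoietin branch, the receptors Tie1 and Tek were detected at 518, 373, 483 and 328 CPM and at 288, 373, 273 and 226 CPM, and their phosphatase partner Ptprb at 2379, 2396, 1786 and 1867 CPM. The ligand Angpt1 had 2 UMIs in the hormone-poor members and Angpt2 had 39.

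Among transcription factors, 21 of 22 listed genes had at least 10 UMIs in hormone-poor members, and 18 were more than 10 times as high there as in insulin-rich barcodes. Epas1, the hypoxia-regulated factor HIF-2 alpha, was at 2053, 2462, 2689 and 2662 CPM and Sox18 at 1266, 1145, 1575 and 1736 CPM. The ETS factors Ets1 (652, 719, 672 and 584 CPM), Erg (384, 426, 189 and 321 CPM) and Fli1 (211, 386, 189 and 241 CPM) were present in every sample. Meox2, a factor of muscle and heart capillaries, had no UMI, which allows up to 9.62 CPM (3 counts over the 311957 UMIs of the hormone-poor members, counting error only).

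Of the basement membrane list 14 of 16 genes, and of the secreted factors 12 of 18, had at least 10 UMIs in hormone-poor members. Sparc, a collagen-binding matrix protein, was at 5832, 8199, 7415 and 6623 CPM, and Col4a1 and Col4a2, the collagen IV chains of basement membrane, at 2916, 4073, 2962 and 3881 CPM and at 1266, 1970, 1849 and 2028 CPM. The laminin chains Lamc1, Lamb1, Lama4, Lamb2 and Lama5 each had 47 to 171 UMIs. Igfbp7 and Igfbp3, binding proteins of insulin-like growth factors, were at 3760, 3620, 3634 and 3231 CPM and at 2897, 3114, 2878 and 2655 CPM. Hgf and Wnt2, growth factors of liver sinusoidal endothelium, had no UMI in these members.

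Genes of vessel segments were mixed. Dll4, a Notch ligand of arterial and sprouting cells, had a UMI in 60 of 109 hormone-poor members (55.0% against 3.88% of insulin-rich barcodes) at 460, 599, 588 and 394 CPM, and the arterial connexin Gja4 in 30 (27.5% against 0.235%). Gja5 and Bmx, genes of larger arteries, had 1 UMI each. The venous receptor Ephb4 was seen in 28 members (25.7% against 0.450%), while Vwf, Selp and Sele had none in 109, which allows a share of up to 2.75% of members with a UMI. At least 1 of the arterial genes Gja4, Sema3g, Hey1 and Efnb2 was seen in 62 members. A venous gene out of Nr2f2, Ephb4 and Aplnr was seen in 43. Both kinds were seen in 27 and neither in 31, at this depth. Dll4 was not in the arterial set, and the sets were counted in hormone-poor members only. Of the lymphatic genes, Prox1, Lyve1 and Pdpn had no UMI in the 109; Flt4, which fenestrated capillaries also express, was found in 62 at 384, 386, 630 and 445 CPM. Prox1 had UMIs in 26.4% of insulin-rich barcodes. Cell cycle genes were nearly absent: 10 of 11 had at most 1 UMI, and Pcna had 43.

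Of 20 class I and interferon genes, all had at least 10 UMIs in hormone-poor members and 13 were more than 10 times as high there as in insulin-rich barcodes. B2m, the light chain of class I molecules, was at 3952, 3048, 3424 and 3764 CPM against a mean of 50.6 CPM in insulin-rich barcodes, and Ly6a, an interferon-responsive surface gene, at 4355, 4419, 3130 and 3399 CPM against 3.83 CPM. Fos, an immediate early gene, was at 1094, 2010, 1449 and 2013 CPM against 710 CPM. Leukocyte adhesion and chemokine genes were mostly at or near 0: Ccl2, Cxcl9, Cxcl10, Il6, Sele and Selp had no UMI, Vcam1 had 1 and Icam1 had 9, whereas Icam2 had 122.

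Hormone RNA was carried by every member, since each of the 180 held at least 1 Ins2 UMI. In hormone-poor members the 7 hormone genes took 1.25%, 0.741%, 1.49% and 1.12% of UMIs. The median per barcode was 1.07%, 0.801%, 2.20% and 1.35%, and in macrophage-marker barcodes it was 1.23%, 1.11%, 2.55% and 1.73%, in the same order of samples. Beta cell genes without a secreted product were close to 0 in hormone-poor members: the factor Nkx6-1 had no UMI against a mean of 278 CPM in insulin-rich barcodes, and the glucose transporter Slc2a2 had 3 UMIs against 680 CPM. Across all members the hormone share of UMIs was 21.5%, 25%, 22.4% and 22.9%, a mean of 23.3% ± 2.52 (SD, n = 2) in mutants and 22.6% ± 0.372 (SD, n = 2) in controls. An exact permutation test over the 4 samples gave p = 1, two-sided, where 2 against 2 allows no p below 0.333. With the marker limit at 1% the shares were 2.44%, 7.51%, 1.49% and 1.32%, both mutants above both controls (difference 3.57 percentage points, exact permutation p = 0.333). In hormone-poor members alone the means were 0.994% ± 0.358 and 1.31% ± 0.262 (SD, n = 2 each; exact permutation p = 0.667). The share of Ins1 among the insulin UMIs (Ins1 plus Ins2) was also looked at. It was 19.6%, 20%, 27.1% and 30.2% in hormone-poor members and 30.9%, 35.4%, 37.8% and 39.1% in hormone-rich members. In insulin-rich barcodes it was 31.7%, 36.0%, 39.1% and 40.5%. Both mutants were below both controls in each of these 3 classes, which come from the same 4 samples. In macrophage-marker barcodes, at 40.9%, 25.5%, 41.4% and 33.8%, the groups overlapped. These shares were looked at after the other values were seen and were not tested.

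RNA of other cell types was checked in the hormone-poor members. Macrophage genes had 0, 0, 0 and 4 UMIs, with 6 of 9 at 0, and the duct, lymphocyte and glial lists were at 0 throughout. Mesenchymal genes, which mark the pericytes and smooth muscle around capillaries, were the exception: 8 of 10 had UMIs (Dcn and Col1a1 had none), their sum was 1266, 1264, 3088 and 2714 CPM, and 3, 3, 5 and 9 members had at least 0.3% of UMIs in them. Acinar genes, of digestive enzyme-secreting cells, were at 57.6, 53.2, 210 and 263 CPM. Both sums were lower in both mutants than in both controls; their part in the differences between groups below was not tested.

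The share of endothelial barcodes was compared first. It was 2.64% (exact Clopper-Pearson 95% interval 1.86% to 3.62%), 2.86% (2.12% to 3.76%), 1.50% (1.02% to 2.14%) and 3.40% (2.63% to 4.32%) of the barcodes kept. The 2 controls stood lowest and highest, with the mutants between them. The means were 2.75% ± 0.157 in mutants and 2.45% ± 1.34 in controls (SD, n = 2 each), a difference of 0.296 percentage points that turned to -0.654 without control 1 and to -0.203 among barcodes with at least 1000 genes (exact permutation p = 1 with all samples). Hormone-poor members alone made up 1.64%, 1.52%, 1.05% and 2.07% (exact permutation p = 1). Intervals cover counting error only.

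**Figure D3:**
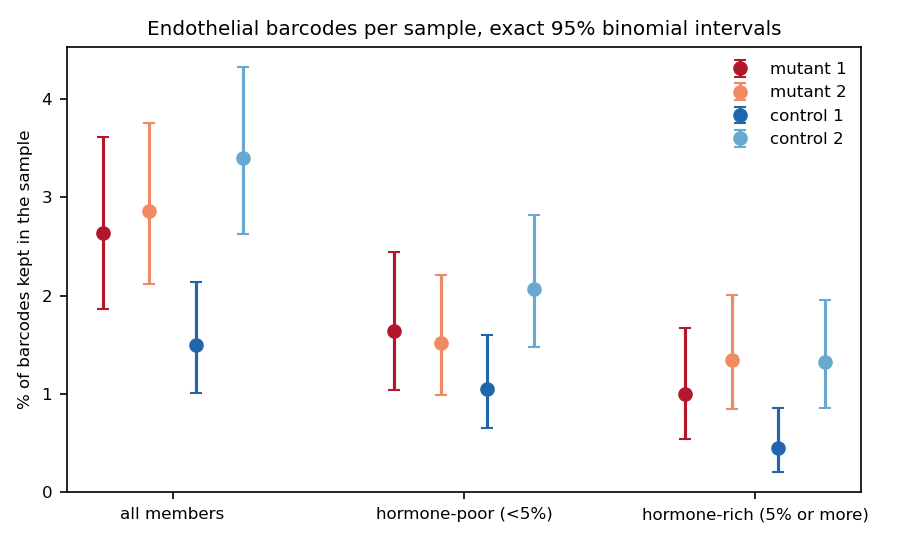
Share of the barcodes kept in each sample that were endothelial members, for all members, hormone-poor and hormone-rich ones; points are samples and bars exact 95% binomial intervals. Control 1 is lowest in each set, and for all members the mutants at 2.64% and 2.86% lie between the controls at 1.50% and 3.40%.

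Atf4, the transcription factor of the integrated stress response that the mutants' Cre driver is directed against in beta cells, lies at chr15:80255184-80257541 (GRCm38, plus strand). In insulin-rich barcodes it was at 13.7 and 124 CPM in the mutants and 323 and 353 CPM in the controls, so both mutants were below both controls. In hormone-poor endothelial members it was at 460 CPM (24 UMIs, exact Poisson 95% interval 295 to 685), 466 CPM (35 UMIs, 325 to 648), 357 CPM (17 UMIs, 208 to 572) and 489 CPM (67 UMIs, 379 to 621), so the groups overlapped. Over all members it was at 240, 349, 380 and 366 CPM, both mutants below both controls, and the log2 change was -0.29 ± 0.27 (SE; edgeR adjusted p = 0.995), and in hormone-poor members it was 0.04 ± 0.30 (edgeR, unadjusted p = 0.895). Among known Atf4 target genes, such as the transporter subunit Slc3a2 and the factor Cebpg, 8 of 34 passed the filter on low counts in all members and none passed the test, with a median log2 change of -0.09 beside 0.01 for all genes. Atf5, a related factor and Atf4 target, was at 18.9, 131, 273 and 227 CPM over all members (-1.60 ± 0.45, edgeR adjusted p = 0.289) and at 36.4, 248, 449 and 547 CPM in insulin-rich barcodes. In hormone-poor members it was at 38.4, 53.2, 126 and 124 CPM, on 29 UMIs.

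**Figure D4:**
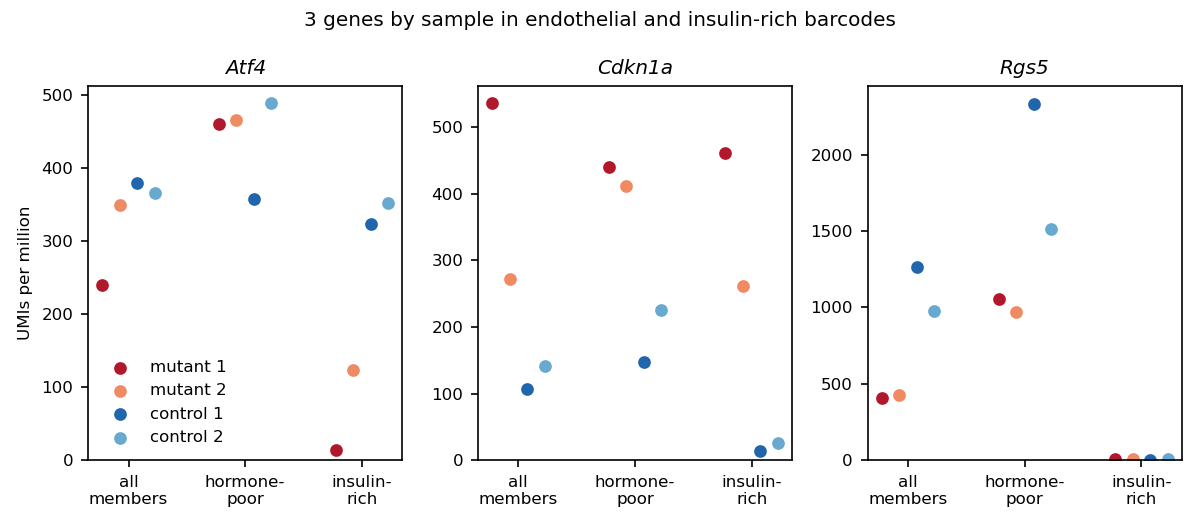
CPM of Atf4, Cdkn1a and Rgs5 in all endothelial members, hormone-poor members and insulin-rich barcodes, 1 point per sample and 3 panels with separate axes from 0. Atf4 is low in the mutants in insulin-rich barcodes and overlaps between groups in hormone-poor members, Cdkn1a is higher in both mutants in each class, and Rgs5 is nearly absent from insulin-rich barcodes.

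The sums of all members were then tested gene by gene (edgeR, quasi-likelihood, with p-values adjusted by Benjamini and Hochberg and called under 0.05). Of 3148 genes tested, 4 rose (0.127%) and 1 fell (0.0318%) in the mutants, 0.159% called in all, beside 98 and 91 at an unadjusted p under 0.05. None of the 116 tested genes of 17 endothelial lists, which leave out the selection markers, was among them, and 12 of the 116 had an unadjusted p under 0.05, against 6.0% of all genes. The median log2 change of the 116 was -0.03, with 54 above and 62 below 0, beside 0.01 for all genes, and by DESeq2 and limma-voom none of the 116 passed either. In hormone-poor members 1328 genes could be tested and 0 passed (0.0% called). Of these, 71 had an unadjusted p under 0.05 (5.35%), 31 of them higher in mutants. The endothelial lists had 107 genes tested there, 9 of them with an unadjusted p under 0.05, and a median log2 change of 0.03. Leaving out 1 sample raised the calls over all members to between 15 and 32, in fits where every gene was given the common spread, and DESeq2 called 0. With hormone genes left out before scaling, 2 genes rose and 1 fell.

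2 of the 5 genes called were hormones. Pyy, peptide YY, was at 7898, 2931, 1129 and 1045 CPM in all members (log2 change 2.34 ± 0.35 SE, edgeR adjusted p = 0.00406). A single member held 83.8% of its UMIs in mutant 1. Ppy, pancreatic polypeptide, was at 2675, 2707, 58.4 and 846 CPM (2.46 ± 0.49, edgeR adjusted p = 0.0336). Its log2 change was 1.69 without control 1 and 5.54 without control 2. In hormone-poor members neither reached the filter, with Pyy at 38.4, 120, 168 and 94.8 CPM and Ppy at 115, 79.9, 42.0 and 58.4 CPM, so nearly all of their UMIs lay in hormone-rich members. With the marker limit at 1% the log2 change of Pyy was -0.39 (edgeR adjusted p = 0.971).

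Cdkn1a, the cell cycle inhibitor p21 at chr17:29090976-29100727, was at 536, 273, 107 and 142 CPM over all members, with both mutants above both controls (1.64 ± 0.32, edgeR adjusted p = 0.0336). Without mutant 1 its log2 change was 1.12 (edgeR adjusted p = 0.324), and the member with most Cdkn1a UMIs held 35.3% of those in mutant 1. In hormone-poor members it was at 441, 413, 147 and 226 CPM, on 23, 31, 7 and 31 UMIs. The log2 change there was 1.04 ± 0.33 and did not pass (edgeR adjusted p = 0.501). Leaving out hormone-poor members with at least 0.3% of UMIs in mesenchymal genes kept 89 members, while only 76 had no mesenchymal UMI. The log2 change was then 0.46 (edgeR adjusted p = 0.935). Over all members it was 0.88 without insulin-rich members and 0.80 without those with most UMIs (edgeR adjusted p = 0.659 and 0.564). All 5 tested p53 target genes had positive log2 changes over all members, a median of 0.84, of which Cdkn1a alone passed; of all 3148 genes 1592 were positive, with a median of 0.01. In hormone-poor members 2 of the list could be tested, none passed and their median was 0.58.

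Rgs5, a regulator of G protein signalling typical of pericytes, at chr1:169655501-169695813, was at 404, 426, 1265 and 976 CPM (-1.39 ± 0.26, edgeR adjusted p = 0.0321), with both mutants below both controls. In each mutant a single member held over 50% of its UMIs (53.1% and 52.6%). In hormone-poor members it was at 1055, 972, 2332 and 1510 CPM (-0.91 ± 0.26, edgeR adjusted p = 0.450). With members at 0.3% or more of UMIs in mesenchymal or macrophage genes left out, the change over all members was -1.86 (edgeR adjusted p = 0.0693). The 24 members left out all passed the mesenchymal limit, and 0 passed the macrophage limit. Rgs5 is itself on the mesenchymal list, so members were dropped partly on Rgs5, and this value is no check of its change. Ankrd12, a nuclear ankyrin repeat protein, was the fourth gene to rise, on 21, 24, 4 and 5 UMIs (2.59 ± 0.49, edgeR adjusted p = 0.0327). Without mutant 2 its adjusted p was 0.0740 and without control 2 it was 0.410 (edgeR).

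A few of the 116 tested genes of the endothelial lists are given here with their values, and they do not stand for the lists. Angpt2, the angiopoietin that destabilises vessels, stood at 192, 200, 63.0 and 80.2 CPM in hormone-poor members, and Thbs1, thrombospondin-1, at 672, 1704, 651 and 554 CPM; their changes over all members were 1.06 ± 0.44 and 0.82 ± 0.32 (edgeR adjusted p = 0.776 and 0.762). Cxcr4, a chemokine receptor of sprouting cells, stood at 95.9, 160, 252 and 299 CPM (-1.11 ± 0.38 over all members, edgeR adjusted p = 0.592), and Plat, tissue plasminogen activator, at 57.6, 93.2, 189 and 204 CPM (-1.38 ± 0.44, edgeR adjusted p = 0.546). For Angpt2, Cxcr4 and Plat the groups did not overlap over all members. Of all genes tested, 16.6% had both mutants above both controls and 17.7% had both below. Among the 116 list genes, 17 had both mutants above both controls and 21 had both below. Angpt2 was named after its values were seen. In hormone-poor members the smallest p belonged to Crim1, a transmembrane regulator of growth factor release, at 441, 359, 105 and 131 CPM (1.64 ± 0.39, edgeR adjusted p = 0.251), also named after its values were seen. Ins1 followed at 2072, 1185, 3466 and 2932 CPM (-1.01 ± 0.25, edgeR adjusted p = 0.251).

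**Figure D5:**
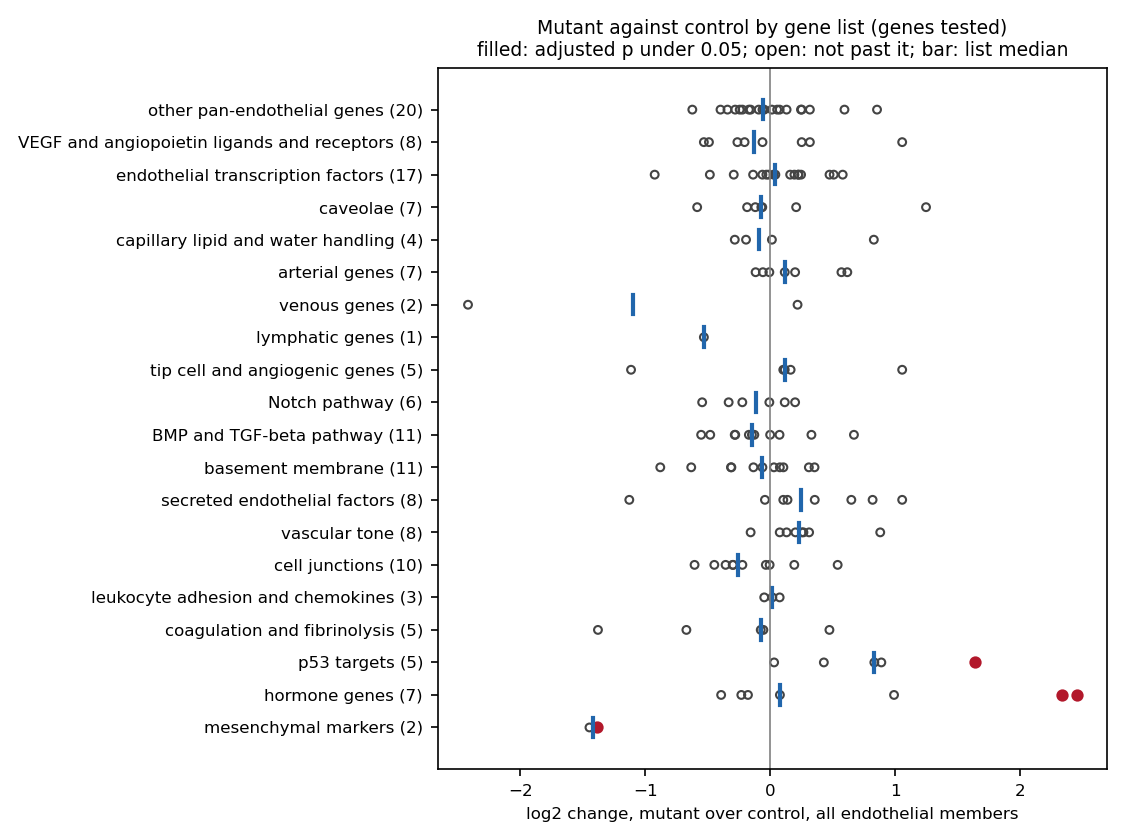
Log2 change between mutants and controls over all endothelial members for the tested genes of 17 endothelial lists (selection markers left out) and of the p53, hormone and mesenchymal lists, with the number tested in brackets. Filled points passed an adjusted p under 0.05 (Cdkn1a, Ppy, Pyy and Rgs5), open points did not, and bars are list medians; no gene of the endothelial lists is filled.

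The mutant effect in endothelial members was set against that in insulin-rich barcodes of the same samples (edgeR interaction, sample as a block). Of 13260 genes tested, 7 differed upward (0.0528%) and 6 downward (0.0452%), 0.098% called in all, beside 303 and 205 at an unadjusted p under 0.05; the fit gave every gene the common spread. DESeq2 called 1 upward and 3 downward and limma-voom 0. The effect on Atf4 was higher in endothelial members by 2.49 ± 0.29 on the log2 scale (SE, edgeR adjusted p = 1.11e-13), and by 2.73 with hormone-poor members only (edgeR adjusted p = 4.17e-08). Without mutant 1, whose insulin-rich barcodes had 13.7 CPM, the difference was 1.52 (edgeR adjusted p = 0.0906), and DESeq2 gave an adjusted p of 0.281 and limma-voom 0.964 with all samples. The effect on Cdkn1a was lower in endothelial members by a log2 difference of -2.37 ± 0.33 (edgeR adjusted p = 2.05e-09; DESeq2 0.00221; limma-voom 0.938) and of -2.92 in hormone-poor ones (edgeR adjusted p = 2.68e-07). In insulin-rich barcodes Cdkn1a was at 461, 261, 13.7 and 24.8 CPM, so its rise in the mutants was larger there than in endothelial members, where the controls already stood at 107 and 142 CPM.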

How the data were processed

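The deposited matrices hold whole-number UMI counts per gene symbol and barcode, made by the authors. The submitters' processing notes name mm10 and Seurat, without saying how each was used. The aligner and counter are not given in the sources used here. Cells were encapsulated by inDrops and libraries made by TruDrop, per the labels' protocols, and the labels give no batch or date. The matrices totalled 13706563, 15453658, 16729747 and 17655893 UMIs.

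Barcodes were filtered and classed by shares of their own UMIs, with no clustering, and no doublet caller was run. Members and the 35 gene lists were chosen with earlier results of these data known. Counts were summed per class and sample, filtered (filterByExpr), scaled (TMM) and tested with edgeR 4.0.16 (R 4.3.3). DESeq2 1.42.0 and limma 3.58.1 were alternatives. Sample values in the report are unscaled CPM. On simulated counts the test over all members recovered 50% of 2-fold and 86% of 4-fold changes. The test of the difference between classes recovered 28% and 78%, with each gene simulated at the same level in both classes. In both simulations the changed genes were drawn from those above 50 CPM. The test of the difference also covered lower genes, for which recovery was not simulated. Sums of hormone-poor members were not simulated. With 2 pools a group, edgeR p-values rest largely on spread borrowed across genes. The prior degrees of freedom were 19.37 over all members and infinite for the difference between classes. No p-value here measures how single mice vary.

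Named genes were up to 12 each way (6 for the interaction) with the largest change among those called whose mean log2 CPM reached 5 and whose groups did not overlap. List members that were called, the 20 genes with the largest ratio over other barcodes, the markers, Atf4, hormones and sex-linked genes were named too. Of the 4 members of each list with the highest mean CPM, only some are given here. Others are listed genes given by counts or as named after their values were seen. Gene positions are from GENCODE on GRCm38 and promoters from RefSeq. Replicates of a group differed by more than sampling noise (chi-square per degree of freedom 2.71 and 3.14).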

Additional observations from a re-analysis of the deposited data

Results flagged for a closer look

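The mutant effect differed between endothelial members and insulin-rich barcodes, by the edgeR test of the difference itself, for 8 named genes. On the log2 scale the endothelial effect was higher for Ppy by 3.23, Pyy by 2.58, Atf4 by 2.49, Ankrd12 by 2.15 and Gpx3 by 1.67. It was lower for Mgp (-2.73), Cdkn1a (-2.37) and Rgs5 (-1.78). With hormone-poor members only, Atf4, Cdkn1a and Mgp still passed (2.73, -2.92 and -2.35). Mgp was at -0.53 once members with at least 0.3% of UMIs in mesenchymal genes were left out too (edgeR adjusted p = 1). In all hormone-poor members Pyy was at -0.19 and did not pass, and Ppy, Ankrd12, Gpx3 and Rgs5 did not pass either.

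Mgp, matrix Gla protein, was at 252, 338, 1158 and 379 CPM in all members. The member with most Mgp UMIs held 72.5%, 61.3%, 39.5% and 31.7% of them per sample. In insulin-rich barcodes Mgp was at 6.33, 6.41, 0.309 and 3.41 CPM. Its log2 difference was -1.24 without control 1 (edgeR adjusted p = 0.761) and -5.95 without control 2. Gpx3, a secreted glutathione peroxidase, was at 233, 257, 204 and 63.2 CPM in all members and at 38.4, 13.3, 0 and 0 CPM in hormone-poor ones. Both hormone-poor mutant values lay under the level of 3 UMIs, at 57.6 and 39.9 CPM, so no group difference can be read from them. Over all members, the one with most Gpx3 UMIs held 73.0%, 19.15%, 66.7% and 20% of them per sample. Without control 2 the Gpx3 difference was 0.82.

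The Ankrd12 difference passed in none of 17 alternatives (lowest adjusted p 0.0811). That of Ppy was 2.25 without control 1 and 5.93 without control 2, and that of Atf4 was 1.52 without mutant 1 and 4.10 without mutant 2. That of Rgs5 was -0.81 without control 1 and -1.16 without mutant 2 (edgeR adjusted p = 1 for both), and -3.90 without control 2.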

How the results depend on the processing

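Of the genes tested between mutants and controls, 5 were called over all members. The count was 0 by DESeq2, with the replicate block, at a marker limit of 0.5%, without the members with most UMIs and in hormone-poor members with or without mesenchymal-marked ones; it was 2 by limma-voom, 28 with no filter, 9 at a marker limit of 1%, and 3 each without insulin-rich members, without macrophage- or mesenchymal-marked members and without hormone genes. Leaving out 1 sample gave 15 to 32. For the difference between classes, 13 genes became 4 by DESeq2, 0 by limma-voom, 8 at 0.5%, 25 without insulin-rich members, 7 without marked members, 5 in hormone-poor members and 2 without mesenchymal-marked ones among these, and 10 to 12 without 1 sample; scaling by library totals moved the median of all genes from 0.03 to -0.09. The hormone-poor settings, with or without mesenchymal-marked members, were chosen after seeing the data. The share difference of 0.296 was -0.203 at 1000 genes and -0.654 to 1.25 without 1 sample; the hormone share difference of 0.632 was -0.314 in hormone-poor members, 3.39 at a marker limit of 0.5%, 3.57 at 1%, 0.004 at 1000 genes and -1.15 to 2.41 without 1 sample. Signs turned for Pyy at a marker limit of 1% (-0.39), Atf4 (0.027 at 1%, 0.11 without insulin-rich members, 0.040 in hormone-poor members), Ins1 (-0.62 to 0.074 without 1 sample, 1.43 at 1%) and Ins2 (-0.14 to 0.26 without 1 sample, -0.0100 without insulin-rich members, -0.059 without the members with most UMIs, -0.071 without marked members, -0.31 in hormone-poor members, -0.51 without mesenchymal-marked ones). In the difference between classes they turned for Ppy (-0.44 at 1%) and Pyy (-0.12 at 1%, -0.19 and -0.39 in hormone-poor members with and without mesenchymal-marked ones). The causes were not tested. Differences between replicates hardly correlated between the groups (correlation 0.00447 over 3137 genes). Whether a replicate number marks a shared day or batch cannot be told from this value, and the labels give neither. The replicate block gave 0 calls between mutants and controls and 10 for the difference between classes. Depth limits the hormone-poor sums, where 1328 genes could be tested.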

Other observations

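Xist, the RNA of the inactive X chromosome in female cells, had 1 UMI among the 311957 of the hormone-poor members, or 3.21 CPM (exact Poisson 95% interval 0.0812 to 17.9). It was at 38.1 CPM in insulin-rich barcodes (36.4 to 39.9) and at 69.0 CPM in macrophage-marker barcodes (40.9 to 109). The macrophage-marker value rests on 14, 2, 1 and 1 Xist UMIs in the 4 samples, so mostly on mutant 1. The 4 Y-linked genes Ddx3y, Eif2s3y, Kdm5d and Uty together were at 67.3 CPM in the hormone-poor members (41.7 to 103) and at 74.6 CPM in insulin-rich barcodes (72.2 to 77.1). Intervals cover counting error only and no test was made. All 4 samples were labelled as pools of both sexes.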
